A study of Mus musculus with 9 samples.

Results

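Glutathione is the main small thiol of cells and reaches an unusually high level in the lens. It is made in 2 steps, in which glutamate-cysteine ligase joins glutamate to cysteine and glutathione synthetase adds glycine. Glutathione peroxidases then spend it on hydrogen peroxide and lipid peroxides, glutathione reductase returns the oxidized form to use with NADPH, and cytosolic cyclotransferases break γ-glutamyl peptides or glutathione itself down. The 9 genes described here are *Gclc* and *Gclm*, the catalytic and the modifier subunit of the ligase, *Gss* (the synthetase), *Gsr* (the reductase), *Ggct* (a γ-glutamylcyclotransferase), *Chac1* (a stress-induced enzyme that cleaves glutathione and a known target of ATF4), and the peroxidases *Gpx1*, *Gpx3* and *Gpx4*. They were taken by symbol from the 55416 genes counted, and each symbol matched 1 gene.

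RNA was sequenced from whole lenses of mouse embryos at embryonic day E16.5, with 1 library for the lens pair of 1 embryo. The 4 *Atf4* null embryos were homozygous for the *Atf4 tm1Tow* allele, which lacks the coding sequence and carries a neomycin marker, and the 5 wildtype embryos were littermates from the same heterozygous intercrosses. The deletion is carried by every tissue of the embryo and not by the lens alone, no treatment was given, and both genotypes share a mixed background of C57Bl/6 and 129 that was not genotyped for the *Bfsp2* deletion of the 129 strain. ATF4 is a transcription factor of the amino acid and endoplasmic reticulum stress responses, and the comparison asks which lens transcripts depend on it.

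The libraries held between 7440807 and 8906996 counts on genes. *Atf4* itself, the check of the labels, lay at 119 to 155 CPM (counts relative to library size, scaled by TMM factors) in wildtype libraries and at 0.58 to 10.6 CPM without ATF4. Wildtype replicate 5 stood apart from the rest, with 9150 CPM over 8 skeletal muscle genes and 14400 CPM over 8 mesenchyme genes, against at most 114 and 552 CPM in any other library. In the same library 9 lens fiber genes summed to 13300 CPM, against 22000 to 25200 CPM in the other 4 wildtype libraries and from 9300 to 21100 CPM among *Atf4* null libraries. The 7 lens epithelium genes examined followed the same order, with 1550 CPM in this library, 2490 to 2510 CPM in the other 4 wildtype libraries and 1400 to 1960 CPM without ATF4, and 4 of them were lower by edgeR. Of the fiber genes, *Lim2* had no count in any library and *Lgsn* none in wildtype replicate 2 or in the 4 *Atf4* null libraries, while *Bfsp1*, *Mip* and *Bfsp2* had group means between 2000 and 6970 CPM. The 8 neural retina genes examined summed to 233 to 637 CPM in the *Atf4* null and 120 to 213 CPM in the wildtype libraries, so these groups did not overlap. The 8 red blood cell genes summed to 182 to 255 CPM in *Atf4* null and 230 to 740 CPM in wildtype libraries. All 7 tested were below 0 on the log2 scale, with a median of -0.95, and 1 of them, *Hba-a1*, passed (adjusted p = 0.0208 by edgeR). Their part in the differences given below was not tested. In RNA of a whole lens, fewer cells of one kind and less RNA per cell cannot be told apart.

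The 3 peroxidases share a feature that the choice by name did not use. In each, a TGA triplet inside the reading frame is read as selenocysteine, the residue that reacts with the peroxide, rather than as a stop. The triplet (in capitals) is shown with the 12 coding bases on either side, 5′ to 3′ on the transcribed plus strand, from GRCm39 and the GENCODE vM39 annotation, because these windows mark the catalytic site of the family.
Gpx1: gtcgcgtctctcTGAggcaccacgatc
Gpx3: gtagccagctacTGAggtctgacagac
Gpx4: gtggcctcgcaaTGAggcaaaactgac
The triplet is codon 47 of 201 in *Gpx1* (chr9:108216650-108216652), codon 73 of 226 in *Gpx3* (chr11:54798082-54798084) and codon 73 of 197 in *Gpx4* (chr10:79890571-79890573). Of the 27 bases, *Gpx1* and *Gpx4* had 17 in common, *Gpx3* and *Gpx4* 16, and *Gpx1* and *Gpx3* 13, the TGA included.

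A RefSeq table of promoters (GRCm38.p6) held 10 windows for 7 of the 9 genes, *Gclm*, *Gss*, *Ggct*, *Chac1*, *Gpx1*, *Gpx3* and *Gpx4*. Each window of 300 bases, 250 of them upstream of the start, was searched on both strands for TGATGCAA, the element bound by ATF4 with a C/EBP partner, and for TGACNNNGC, the core of the antioxidant response element bound by NRF2. TGATGCAA occurred in 0.895% of the 32851 windows in the table and TGACNNNGC in 12.4% of them. The 250 upstream bases are shown for *Chac1* as the ATF4 target of the family and for *Ggct* as the gene with the largest difference. They are also shown for *Gpx1* as the gene with the highest level per exon length. Matches are in capitals and read along the strand of the gene.
Chac1, chr2:119350992-119351241, plus strand: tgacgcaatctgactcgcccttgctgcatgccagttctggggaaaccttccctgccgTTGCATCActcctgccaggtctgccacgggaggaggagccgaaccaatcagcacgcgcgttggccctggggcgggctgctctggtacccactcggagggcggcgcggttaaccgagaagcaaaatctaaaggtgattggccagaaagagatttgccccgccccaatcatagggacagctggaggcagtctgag
Ggct, chr6:54992868-54993117, minus strand: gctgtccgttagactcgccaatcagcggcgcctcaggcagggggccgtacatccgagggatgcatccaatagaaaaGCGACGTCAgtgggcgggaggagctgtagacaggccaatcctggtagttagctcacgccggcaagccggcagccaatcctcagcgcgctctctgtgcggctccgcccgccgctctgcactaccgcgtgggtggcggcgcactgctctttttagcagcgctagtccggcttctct
Gpx1, chr9:108338830-108339079, plus strand: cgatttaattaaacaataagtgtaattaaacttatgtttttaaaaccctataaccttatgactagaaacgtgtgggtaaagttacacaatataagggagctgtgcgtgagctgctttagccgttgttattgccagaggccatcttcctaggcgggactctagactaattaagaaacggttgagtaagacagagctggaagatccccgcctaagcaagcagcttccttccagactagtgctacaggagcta
*Chac1* held TGATGCAA on the opposite strand, at positions -193 to -186 from the start. *Ggct* held the core TGACNNNGC on the opposite strand at -174 to -166 and on its own strand at 5 to 13, past the bases shown, and *Gclm* held it on the opposite strand at -134 to -126. Neither string of letters was found in the windows of *Gss*, *Gpx1*, *Gpx3* and *Gpx4*. A match is a description of the sequence, and its absence says only that these letters are not in this window.

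Of the 9 genes, 8 passed the filter on low counts and were tested, and *Chac1* did not. *Ggct*, *Gpx1* and *Gpx4* were lower and *Gsr* was higher in the *Atf4* null lenses, so 4 of the 8 genes passed (adjusted p under 0.05 in the quasi-likelihood test of edgeR, adjusted by the Benjamini-Hochberg method over 14903 genes). In all genes tested, 5.9% passed, 3.67% as lower and 2.23% as higher. The 4 genes that did not pass were *Gclc*, *Gclm* and *Gss*, which are all the genes of synthesis, and *Gpx3*. The median log2 fold change of the 8 genes, *Atf4* null relative to wildtype, was -0.27, against 0.001 over all genes tested. The CPM of the 2 genotypes did not overlap for 3 of the 8 genes, *Gsr*, *Ggct* and *Gpx4*, and for 10.2% of all genes tested. The litters of the 9 embryos are not given, and the p-values measure the spread between these embryos. Without wildtype replicate 5 the same count of 4 genes passed, with log2 fold changes of -0.02 for *Gclc*, -0.46 for *Gclm*, -1.45 for *Ggct*, -0.11 for *Gpx3* and -0.54 for *Gpx4*, while 2 did without *Atf4* null replicate 1 or 3 or wildtype replicate 1, 2 or 3, and 3 did without *Atf4* null replicate 2 or 4 or wildtype replicate 4.

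**Figure D1:**
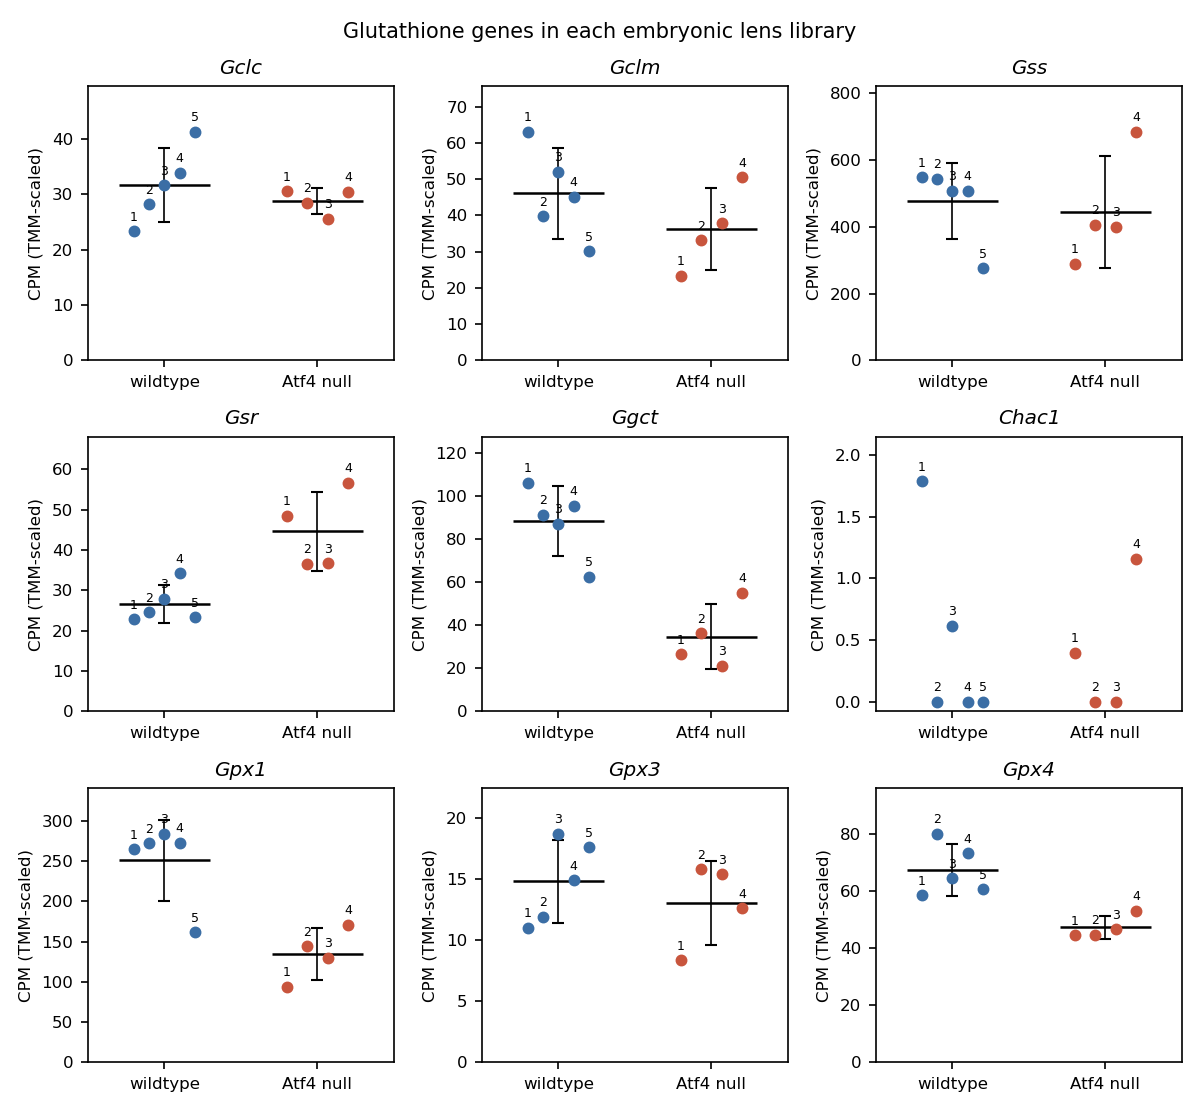
CPM of the 9 genes (vertical axes, scaled by TMM factors, from 0 or, for *Chac1*, just below it) in the 5 wildtype and 4 *Atf4* null libraries, with replicate numbers beside the points. Lines and bars are the mean and SD, left out for *Chac1*. *Ggct* lay at 21.1 to 55.1 CPM in the *Atf4* null and 62.4 to 106 CPM in the wildtype libraries, and wildtype replicate 5 was the lowest wildtype library for *Gclm*, *Gss*, *Ggct* and *Gpx1* and the highest for *Gclc*.

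Among the genes of synthesis, *Gclc* (ENSMUSG00000032350, chr9:77661797-77701770, plus strand, GRCm39 as for all gene positions that follow) encodes the subunit of the ligase that carries the active site. Its level was 23.3, 28.2, 31.6, 33.9 and 41.3 CPM in wildtype replicates 1 to 5 and 30.6, 28.5, 25.6 and 30.5 CPM in *Atf4* null replicates 1 to 4. The *Atf4* null values lay inside the wildtype range, and wildtype replicate 5 was the highest library. The means were 31.7 ± 6.72 (SD, n = 5) and 28.8 ± 2.35 CPM (SD, n = 4), and the log2 fold change of -0.14 ± 0.19 (SE) had an adjusted p of 0.759 by edgeR. The 95% confidence interval of the log2 fold change ran from -0.54 to 0.26.

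*Gclm* (ENSMUSG00000028124, chr3:122039126-122065061, plus strand) encodes the subunit that eases feedback inhibition of the ligase by glutathione. It was measured at 63.1, 39.8, 52.1, 45.2 and 30.1 CPM in wildtype and 23.4, 33.1, 37.8 and 50.6 CPM in *Atf4* null replicates. The genotypes overlapped over most of their range, with wildtype replicate 5 below 3 of the 4 *Atf4* null libraries. The log2 fold change was -0.35 ± 0.24 (SE) with an adjusted p of 0.49 by edgeR and an interval from -0.87 to 0.18, which contains 0. Per exon length, the ratio of *Gclc* to *Gclm* in FPKM was 1.74 in wildtype replicate 5 and 1.66 in *Atf4* null replicate 1, the 2 libraries with the lowest sums of lens fiber genes, and between 0.469 and 1.09 in the other 7.

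*Gss* (ENSMUSG00000027610, chr2:155405096-155455505, minus strand) was the most abundant gene of synthesis. It stood at 549, 544, 508, 508 and 276 CPM in wildtype and at 290, 406, 400 and 685 CPM in *Atf4* null replicates. *Atf4* null replicate 4 was the highest and wildtype replicate 5 the lowest of the 9 libraries, so the genotypes overlapped throughout. The log2 fold change was -0.10 ± 0.24 (SE; adjusted p = 0.882 by edgeR; 95% interval -0.62 to 0.42). It was -0.24 (adjusted p = 0.544) without wildtype replicate 5, and 0.07 (adjusted p = 0.924) without *Atf4* null replicate 1, so its sign depended on the library left out. Exons of *Acss2*, on the opposite strand, cover 21.9% of the exon bases of *Gss*, and the strand setting of the counting is not given in the sources used here. *Acss2* had 19 to 90 counts in a library and *Gss* 2584 to 4719.

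*Gsr*, which encodes glutathione reductase, was the gene that rose. It is annotated as ENSMUSG00000031584 at chr8:34142551-34188192 on the plus strand. The wildtype libraries held 22.9, 24.6, 27.9, 34.2 and 23.4 CPM and the *Atf4* null libraries 48.5, 36.6, 36.7 and 56.7 CPM. Each *Atf4* null library was above each wildtype library, with the nearest values at 34.2 and 36.6 CPM. The means of 26.6 ± 4.67 (SD, n = 5) and 44.6 ± 9.8 CPM (SD, n = 4) differed 1.68-fold, a log2 fold change of 0.75 ± 0.19 (SE; 95% interval 0.34 to 1.15) with an adjusted p of 0.0341 by edgeR. The exact permutation test, two-sided here and below, gave p = 0.016. The adjusted p was 0.0374 without wildtype replicate 5, and it rose above 0.05, to between 0.0665 and 0.0934, without *Atf4* null replicate 1 or 4 or wildtype replicate 1, 2 or 3, while the log2 fold change stayed between 0.61 and 0.85 with any library left out. The retina genes moved with *Gsr* by genotype. Within wildtype, replicates 1 to 4 had the same order for both, with retina sums of 120, 163, 185 and 213 CPM, and replicate 5 did not (195 CPM). *Atf4* null replicate 4 had the highest *Gsr* and the lowest retina sum of its group (233 CPM), and the part of retina transcripts in the result was not tested.

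*Ggct*, the γ-glutamylcyclotransferase that releases 5-oxoproline from γ-glutamyl amino acids, had the largest difference of the 8 genes (ENSMUSG00000002797, chr6:54959246-54969942, minus strand). Wildtype replicates 1 to 5 held 106, 91.1, 87.1, 95.3 and 62.4 CPM and *Atf4* null replicates 1 to 4 held 26.4, 36.2, 21.1 and 55.1 CPM. No *Atf4* null library reached the lowest wildtype library, replicate 5, and the highest *Atf4* null library was replicate 4. Means of 88.5 ± 16.2 (SD, n = 5) and 34.7 ± 15 CPM (SD, n = 4) made *Ggct* 2.56-fold lower, with a log2 fold change of -1.35 ± 0.25 (SE; 95% interval -1.89 to -0.82) and an adjusted p of 0.00589 by edgeR. The exact permutation p was 0.0079, the smallest that these group sizes allow. *Ggct* passed the threshold in each of 18 alternatives, at log2 fold changes from -1.67 to -1.17.

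*Chac1* (ENSMUSG00000027313, chr2:119180757-119184866, plus strand) was close to undetected in both genotypes. It had 14, 0, 5, 0 and 0 counts in wildtype and 4, 0, 0 and 8 counts in *Atf4* null replicates, 19 and 12 counts in all. The 5 libraries at 0 allow up to 3 counts each, or 0.32 to 0.379 CPM. It was left out of the edgeR test, the exact permutation test gave p = 1, and no fold change was computed. A difference between the genotypes was not detectable at this depth. Its relative *Chac2*, which degrades glutathione slowly and at a constant rate, averaged 2.65 ± 0.594 CPM over the 5 wildtype and 5.41 ± 2.99 CPM (SD) over the 4 *Atf4* null libraries, and its adjusted p by edgeR was 0.251.

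Of the peroxidases, *Gpx1*, which reduces hydrogen peroxide in the cytosol and mitochondria, is a short gene (ENSMUSG00000063856, chr9:108216102-108217546, plus strand). It stood at 265, 272, 284, 273 and 162 CPM in wildtype and at 94.1, 144, 130 and 171 CPM in *Atf4* null replicates. Wildtype replicates 1 to 4 lay close together above all *Atf4* null libraries, and wildtype replicate 5 fell among the latter, below *Atf4* null replicate 4. The means were 251 ± 50.1 (SD, n = 5) and 135 ± 32.1 CPM (SD, n = 4), a fall of 1.86-fold with a log2 fold change of -0.90 ± 0.19 (SE; 95% interval -1.31 to -0.49) and an adjusted p of 0.0134 by edgeR. The exact permutation test gave p = 0.024. Without wildtype replicate 5 the log2 fold change was -1.01 and the adjusted p 0.000475, and without *Atf4* null replicate 3 they were -0.88 and 0.0518.

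*Gpx4*, the peroxidase that reduces lipid peroxides in membranes and guards against ferroptosis, fell by less (ENSMUSG00000075706, chr10:79883000-79892273, plus strand). Its level was 58.6, 80.2, 64.7, 73.3 and 60.8 CPM in wildtype and 44.7, 44.8, 46.8 and 53.2 CPM in *Atf4* null replicates. The 4 *Atf4* null libraries were close to each other and all below the lowest wildtype library, replicate 1, and wildtype replicate 5 was not set apart here. The means of 67.5 ± 9.02 (SD, n = 5) and 47.4 ± 4.02 CPM (SD, n = 4) gave a log2 fold change of -0.51 ± 0.14 (SE; 95% interval -0.81 to -0.21), 1.43-fold lower. The adjusted p of 0.045 by edgeR was close to the threshold, and the exact permutation p was 0.0079. It passed in 7 of 18 alternatives and in 2 of the 9 fits that left out 1 library (*Atf4* null replicate 4 or wildtype replicate 5), with adjusted p between 0.0292 and 0.127 and log2 fold changes between -0.57 and -0.44 in those 9. The pseudogene *Gpx4-ps2* held at most 15 counts in a library and *Gpx4-ps1* none, against 367 to 652 for *Gpx4*.

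*Gpx3*, the peroxidase secreted into plasma and extracellular fluid, was between 11 and 18.7 CPM in wildtype and between 8.34 and 15.8 CPM in *Atf4* null libraries (ENSMUSG00000018339, chr11:54793279-54802424, plus strand). The ranges overlapped, with a log2 fold change of -0.19 ± 0.26 (SE; adjusted p = 0.776 by edgeR; 95% interval -0.75 to 0.38). Exons of *Tnip1* on the opposite strand cover 85% of its exon bases in the annotation, with 151 to 346 counts for *Tnip1* and 84 to 165 for *Gpx3*, and without a stated strand setting it is not known whether reads over the shared bases were counted. The interval excludes a fall of the size of *Ggct* and contains that of *Gpx4*.

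**Figure D2:**
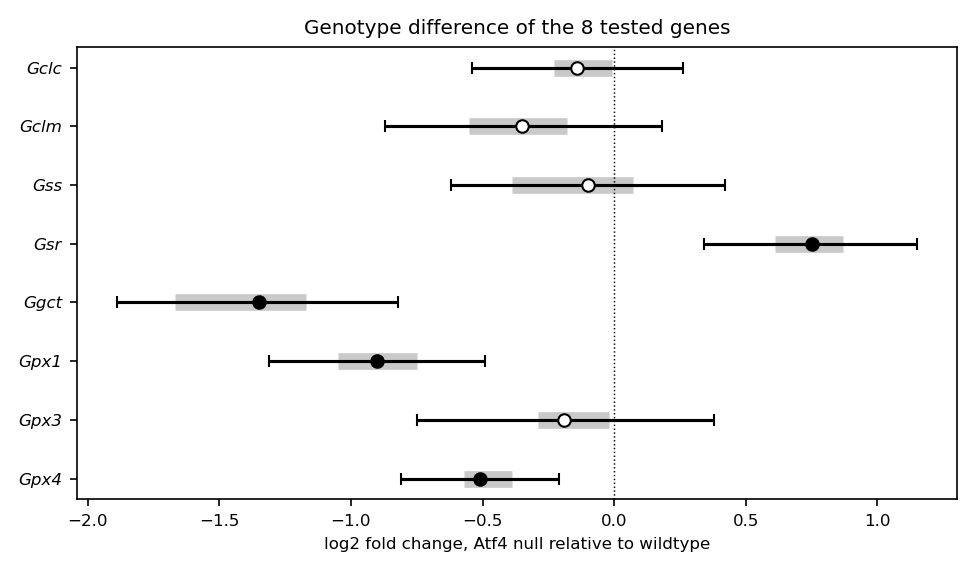
Log2 fold change of the 8 tested genes, *Atf4* null relative to wildtype (horizontal axis), with 95% confidence intervals as lines. Filled points passed an adjusted p of 0.05, and grey bars span the values over 18 alternatives. *Ggct* at -1.35, *Gpx1* at -0.90 and *Gpx4* at -0.51 lie on the lower side and *Gsr* at 0.75 on the upper side.

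Levels of different genes were compared as FPKM, the CPM per kilobase of annotated exon. The length covers all annotated exons of a gene together, 8071 bases for *Ggct* and 1445 for *Gpx1*. It can exceed the length of the main transcript, so the order of genes given here depends on it. By mean CPM in wildtype lenses, *Gss* at 477 lay above *Gpx1* at 251, and *Ggct* at 88.5 above *Gpx4* at 67.5. In wildtype lenses *Gpx1* led with 174 ± 34.7 FPKM (SD, n = 5), above 99.3% of the genes tested. *Gss* at 69 FPKM (39.9 to 79.5 over the 5 libraries) and *Gpx4* at 39.2 ± 5.23 FPKM (SD, n = 5) came next, and their ranges overlapped because wildtype replicate 5 had 39.9 FPKM of *Gss*. The range of *Gpx1* did not overlap that of *Gss*. *Ggct* followed at 11 ± 2.01 FPKM (SD, n = 5), apart from *Gpx4* and overlapping *Gclm* at 5.79 ± 1.56. The ranges of *Gclm*, *Gclc*, *Gpx3* and *Gsr*, the last 3 at 5.05, 4.84 and 3.83 FPKM, overlapped from each gene to the next. The FPKM of *Gpx3* counts its full exon length, so it and the place of *Gpx3* are too low if reads over the 85% of bases shared with *Tnip1* were left out. *Chac1* was last at 0.186 FPKM, below the range of *Gsr*. In the *Atf4* null lenses *Gpx1*, *Gss* and *Gpx4* held the first 3 places at 93.3, 64.4 and 27.5 FPKM. *Gsr* moved from the eighth place to the fourth with 6.43 ± 1.41 FPKM (SD, n = 4), and *Ggct* from the fourth to the seventh with 4.3 ± 1.86 FPKM. These places are not firm, since the *Atf4* null range of *Gsr*, 5.27 to 8.18 FPKM, overlapped those of *Ggct* (2.61 to 6.83) and *Gclm* (2.95 to 6.36), and the ranges of *Gclc*, *Gclm*, *Ggct* and *Gpx3* overlapped from each to the next. *Gpx1* and *Gss* overlapped too in the *Atf4* null lenses.

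**Figure D3:**
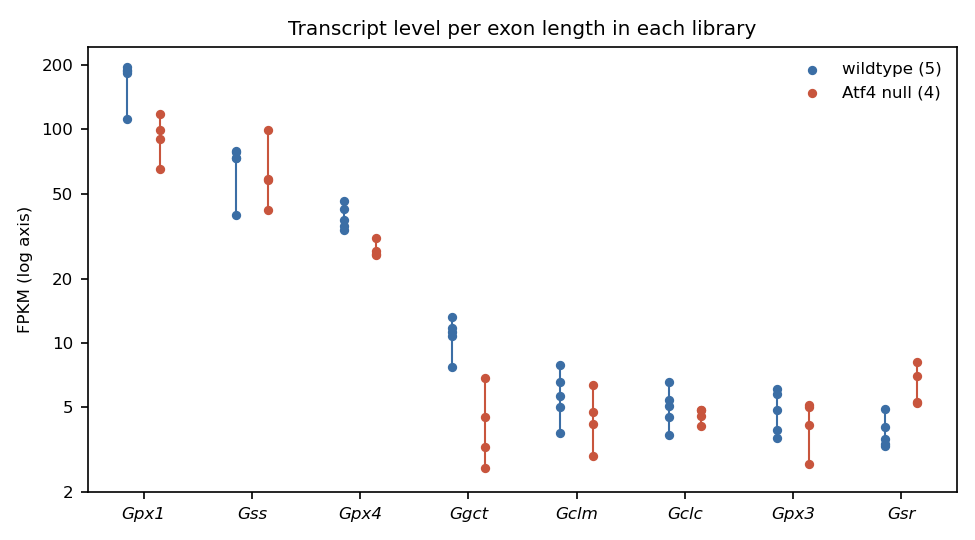
FPKM of the 8 tested genes (log axis) in each wildtype and *Atf4* null library, in the order of their wildtype means, with lines from the lowest to the highest library. *Gpx1*, *Gss* and *Gpx4* are the 3 highest genes in both genotypes, at 174, 69 and 39.2 FPKM in wildtype and 93.3, 64.4 and 27.5 FPKM in *Atf4* null lenses.

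The 3 peroxidases together came to 221, 239, 240, 236 and 153 FPKM in wildtype and 93.8, 131, 122 and 153 FPKM in *Atf4* null replicates. Wildtype replicate 5 equalled the highest *Atf4* null library at this precision, and the other 4 wildtype libraries were above all of them. *Gpx1* made up 73.2% to 83% of this sum in wildtype and 69.5% to 77.2% in *Atf4* null libraries, which overlapped through wildtype replicate 5 alone, since the other 4 wildtype libraries held 78.9% or more. The sum and these shares carry the same uncertainty about *Gpx3*, whose FPKM may be too low, while the ratio of *Gpx1* to *Gpx4* does not use it. This ratio was 3.18 to 5.4 in wildtype and 2.51 to 3.84 in *Atf4* null libraries, with wildtype replicate 5 again the lowest of its group and the other 4 at 4.05 or more. Of the other peroxidases, *Gpx2*, *Gpx5* and *Gpx6* had no count in any library. *Gpx8*, of the endoplasmic reticulum, stood at 8.14 FPKM in wildtype, above the 4.84 FPKM of *Gpx3*. Its log2 fold change was -0.27 (adjusted p = 0.598 by edgeR). With *Gpx7* and *Prdx6*, 0 of 3 tested genes of this list passed, also at an unadjusted edgeR p under 0.05 and in each of 18 alternatives. In all genes tested 5.9% passed, and 19.6% at that unadjusted p, so 0 of 3 does not set this list apart from other genes.

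The sums of lens fiber genes and several of the 8 genes varied together across libraries, as did those of lens epithelium genes. Divided by that sum, per 1000 CPM of the 9 fiber genes, *Gpx1* was 10.5, 12.4, 12.2, 11.9 and 12.2 in wildtype and 10.1, 9.86, 9.22 and 8.1 in *Atf4* null replicates. On this scale wildtype replicate 5 no longer stood apart for *Gpx1*, and the genotypes did not overlap. It stood above the other wildtype libraries for *Gclc* (3.11 against 0.925 to 1.47), *Gpx3* (1.32 against 0.437 to 0.803), *Gpx4* (4.57 against 2.33 to 3.65), *Gsr* (1.76 against 0.909 to 1.49) and *Ggct* (4.69 against 3.74 to 4.21), and below them for *Gss* (20.8 against 21.8 to 24.7). *Ggct* was 3.74 to 4.69 in wildtype and 1.5 to 2.84 in *Atf4* null libraries on the same scale, without overlap. *Gss* was 20.8 to 24.7 in wildtype and 27.8 to 32.5 in *Atf4* null libraries, and *Gsr* 0.909 to 1.76 and 2.51 to 5.22, both higher in the null and without overlap. *Gpx4*, at 2.33 to 4.57 and 2.52 to 4.81, and *Gclm*, *Gclc* and *Gpx3* overlapped. Of all genes tested, 11.2% did not overlap after the same division. This division was chosen after the values were seen, and its denominator is itself an outcome, since 4 of the 8 tested fiber genes were lower in the *Atf4* null lenses. The part of fiber or epithelium content in the differences was not tested beyond these values.

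**Figure D4:**
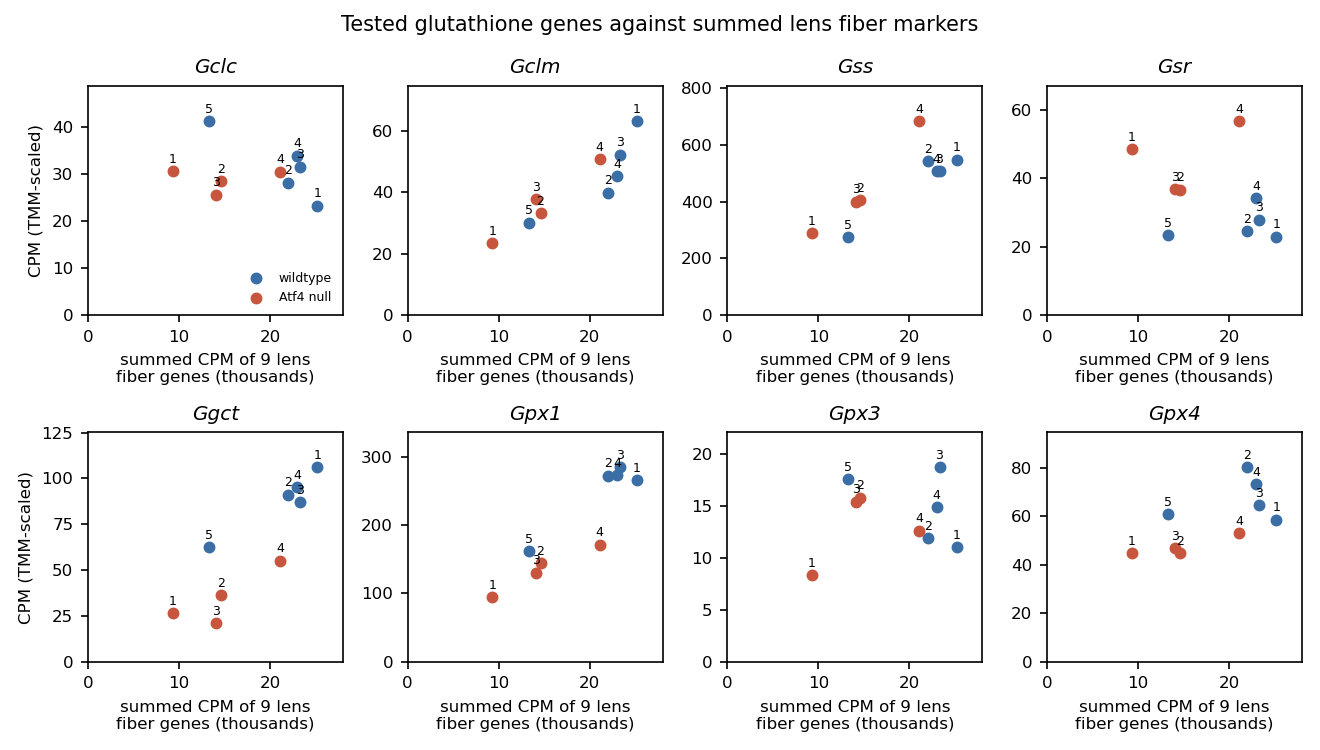
CPM of each tested gene (vertical axis) against the summed CPM of 9 lens fiber genes (horizontal axis, in units of 1000 CPM), 1 point per library with its replicate number. For *Gpx1* wildtype replicate 5, at 162 CPM, sits beside *Atf4* null replicates 2 and 3 at 144 and 130 CPM and a like fiber sum, and for *Ggct*, at 62.4 CPM, it sits above them.

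Among 13 other genes of the γ-glutamyl cycle and glutathione breakdown, 9 were tested and 0 passed, with a median log2 fold change of -0.03. The most abundant per length was *Lap3*, a leucine aminopeptidase, at a log2 fold change of 0.11 (adjusted p = 0.805 by edgeR). The same held for selenocysteine incorporation, where 0 of 9 genes passed at a median of -0.04, and for other selenoproteins, where 0 of 16 tested genes passed at a median of -0.10. Their most abundant genes were *Sephs2*, which makes the selenium donor, at 0.24 (adjusted p = 0.527) and *Selenow* at -0.24 (adjusted p = 0.407). With 5.9% of all genes called, lists of this size would hold about 1 call or none, so these counts do not set the lists apart from other genes. At an unadjusted edgeR p under 0.05, 4 of the 16 passed, with 1 of the 9 for incorporation and 1 of the 9 for the γ-glutamyl cycle, against 19.6% of all genes tested. Over 18 alternatives, DESeq2 and exactTest included, at most 1 of the 16 passed and none of the incorporation and γ-glutamyl cycle genes.

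Of 11 genes for the supply of the precursors cysteine, glutamate and glycine, 2 passed and both were lower, with a median log2 fold change of -0.54, where 5.9% of all genes tested passed and 3.67% did so as lower. The count was 5 with DESeq2 and with no filter on low counts, and 3 without wildtype replicate 5. *Slc7a11*, the cystine-glutamate exchanger that brings in the cysteine for glutathione, fell 3.43-fold from 80 ± 15.9 (SD, n = 5) to 23.3 ± 6.81 CPM (SD, n = 4), with an adjusted p of 0.000377 by edgeR. *Slc1a4*, a carrier of small neutral amino acids, fell 2.72-fold from 56.1 ± 14.4 to 20.7 ± 6.03 CPM (adjusted p = 0.00248). *Slc3a2*, the heavy chain that partners *Slc7a11*, stood at 261 and 171 CPM with an adjusted p of 0.0545. Neither *Cth* nor *Cbs*, the enzymes that make cysteine from methionine, exceeded 10 CPM in any library. Of 3 exporters 1 passed, a count too small to read against the same 5.9%. It was *Abcc4*, which carries glutathione and its conjugates out of cells and fell 2.68-fold from 22.2 ± 4.13 to 8.24 ± 4.33 CPM (adjusted p = 0.0206). This call was lost without wildtype replicate 1 and without wildtype replicate 2.

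Glutathione reductase draws on NADPH, and of 9 genes for NADPH production and the pentose phosphate pathway 5 passed, all lower, with a median log2 fold change of -0.55, against 3.67% of all genes tested that passed as lower. *Tkt* and *Taldo1*, the non-oxidative enzymes of the pentose phosphate pathway, fell 2.17-fold (adjusted p = 0.00046 by edgeR) and 1.61-fold (adjusted p = 0.0171). These 2 enzymes rearrange sugars and do not themselves make NADPH. *Idh2* and *Idh1*, the mitochondrial and the cytosolic NADP-dependent isocitrate dehydrogenase, fell 1.82-fold (adjusted p = 0.00111) and 1.46-fold (adjusted p = 0.0282), and *Pgd*, the second NADPH-producing step of the pathway, fell 1.64-fold (adjusted p = 0.0352). *G6pdx*, the first step, stood at a log2 fold change of -0.29 (adjusted p = 0.455). *Me1* and *Nnt*, of the same list, stood at 0.30 and 0.75 (adjusted p = 0.549 and 0.53), on the side of *Gsr*. The count was 5 without wildtype replicate 5 and 2 when libraries were scaled by size alone, and between 2 and 4 without *Atf4* null replicate 2, 3 or 4 or any 1 of wildtype replicates 1 to 4.

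Glutaredoxins and glutathione-dependent detoxification had 1 of 9 genes below the threshold, and 2 without wildtype replicate 5. With 5.9% of all genes called, 1 gene of 9 does not set this list apart from other genes. That gene was *Txndc12*, a thioredoxin-like protein of the endoplasmic reticulum, which fell 2.02-fold from 44.4 ± 7.27 (SD, n = 5) to 22 ± 4.32 CPM (SD, n = 4; adjusted p = 0.00637 by edgeR). *Gclc*, *Gclm* and *Gsr* are known targets of NRF2, the main antioxidant transcription factor, and of 12 other tested NRF2 targets and regulators 3 were lower and 0 higher, against 3.67% and 2.23% of all genes tested. *Gstm1*, a glutathione S-transferase, fell 6.02-fold (adjusted p = 3.49e-05), *Hmox1*, heme oxygenase, fell 4.5-fold (adjusted p = 0.00069), and *Slc7a11* is the gene given above. *Nfe2l2*, which encodes NRF2, stood at -0.26 (adjusted p = 0.445), and *Txnrd1*, thioredoxin reductase, at 0.27 (adjusted p = 0.189). Of 15 tested ATF4 targets 6 were lower and 1 higher, to be read against the same shares. *Slc7a11* is among these 6 as well, so the counts of the supply, NRF2 and ATF4 lists are not independent. *Nupr1*, a stress-response regulator, fell 3.82-fold and *Phgdh*, the first enzyme of serine synthesis, 3.21-fold (adjusted p = 0.000155 and 0.000653 by edgeR). The transcript of *Ddit3*, which encodes the pro-apoptotic factor CHOP, rose 9.18-fold (adjusted p = 0.000581). For CHOP protein, the immunostaining of the paper found no significant change in *Atf4* null lenses at E16.5.

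**Figure D5:**
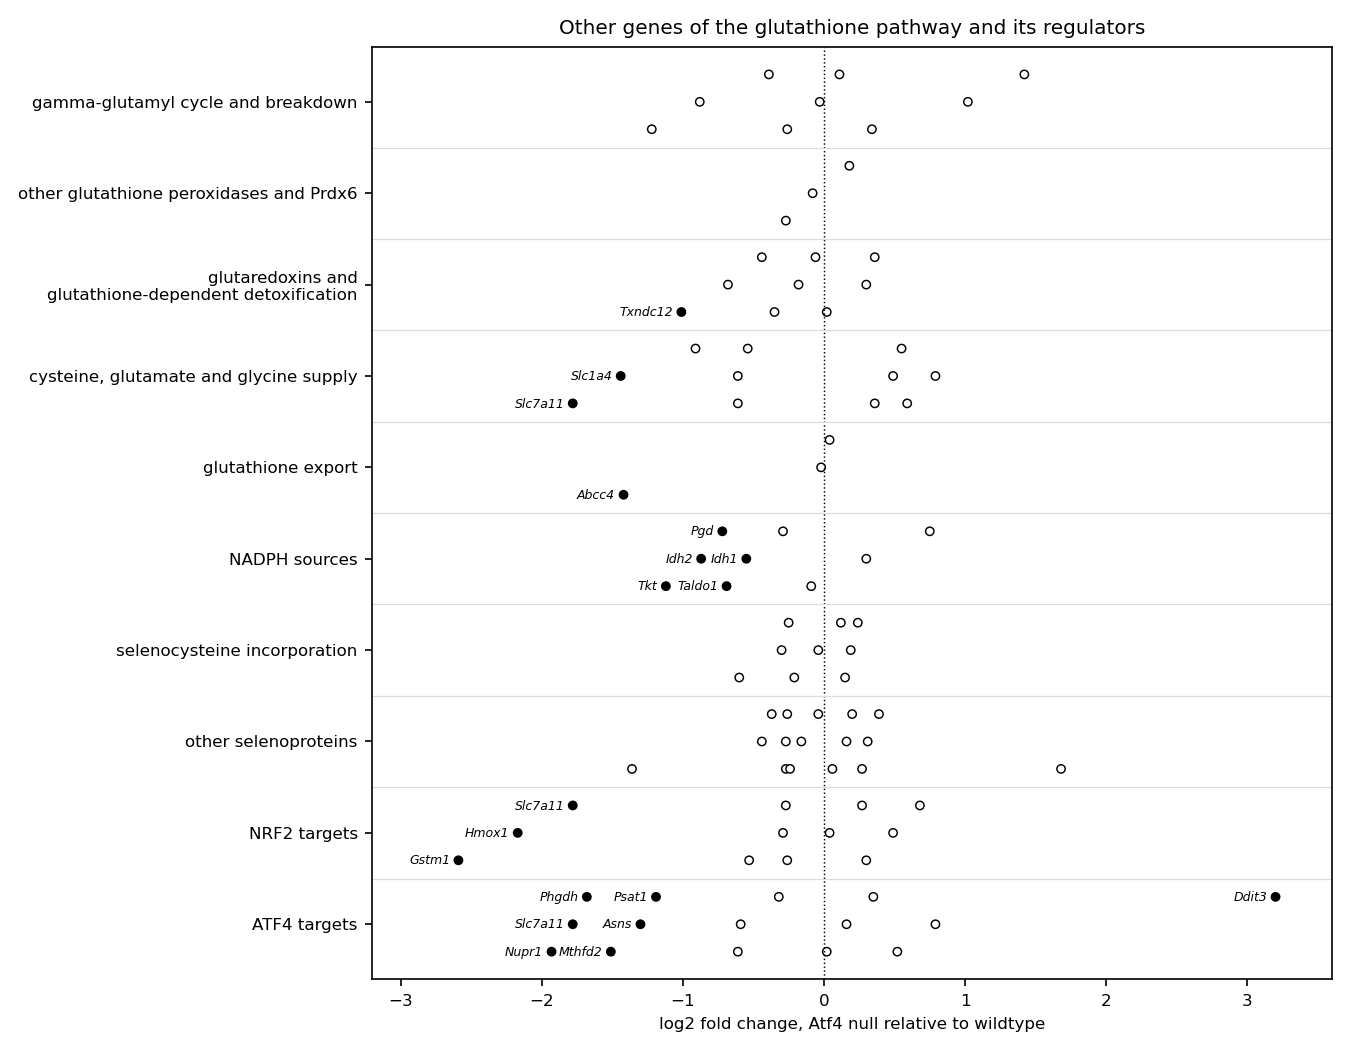
Log2 fold change (horizontal axis, *Atf4* null relative to wildtype) of the tested genes of 10 lists around the glutathione genes, 1 point per gene, filled and named where the adjusted p was below 0.05. The vertical position within a row has no meaning. All 5 filled points of the NADPH list lie below 0, and the lists for selenocysteine incorporation and other selenoproteins have none.

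For the 4 genes that passed, the transcripts with the most similar pattern over the 9 libraries were sought by Pearson correlation of log2 CPM among 9355 genes. These correlations describe libraries that differ in genotype and in fiber content, and are given without a test. *Gpx1* was closest to *Cryba4*, a β-crystallin (r = 0.993), *Plaat3*, a phospholipase that takes part in organelle loss of lens fibers (r = 0.991), and *Zfp185* (r = 0.99). *Ggct* was closest to *Rnf180* (r = 0.988), *Pacsin3* (r = 0.98) and *Gadd45g* (r = 0.979). *Cryba4* stood at 4160 CPM in wildtype and 1790 CPM in *Atf4* null lenses, and *Rnf180* at 105 and 40.9 CPM. *Gpx4* was closest to *Il1rap* (r = 0.982), *Cox20* (r = 0.959) and *Glod4* (r = 0.956). *Gsr* was closest to *Uri1* (r = 0.974), *Cep83* (r = 0.956) and *Cry1*, a repressor of the circadian clock (r = 0.949), which rose 1.99-fold from 13.9 to 27.8 CPM (adjusted p = 0.014 by edgeR).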

How the data were processed

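Per the paper and the labels, the authors trimmed reads with Trim Galore, removed ribosomal RNA reads with HISAT2, aligned to GRCm39 and counted genes with HTSeq, giving deposited counts per gene without normalization. The 5 HTSeq summary entries, 44.6% to 47.7% of the entries of a library, were left out, and 0.033% of gene counts lay on genes without a symbol. Symbols, positions and exon lengths came from GENCODE vM39. Genotypes were compared with edgeR 4.0.16 in R 4.3.3 (filterByExpr, TMM factors, quasi-likelihood test, no covariate) on all 9 libraries. The authors used edgeR's exactTest, which was run as an alternative, with DESeq2 1.42.0, other scalings and filters, a robust fit, a replicate block and each library left out. An exact permutation test, two-sided, on mean log2 CPM served for single genes. Correlations used genes with a mean of at least 10 CPM and a prior count of 2. The procedure was tested on simulated data. The depth of about 7440807 to 8906996 counts limits precision for genes with few counts. Replicate numbers follow the sample titles. For wildtype they are uncertain, because title and counts name different wildtype libraries. The 9 genes and all lists were chosen with earlier results of these data known. All 9 genes are named, with at most 5 called genes per pathway list (the most abundant gene where none was called) and the 3 most similar genes of each called gene, beside other genes chosen for their role.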

Additional observations from a re-analysis of the deposited data

Results flagged for a closer look

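Of the 18 groups examined (9 genes in 2 genotypes), 2 held a library far from the others. Chance alone gives about 1 in 20 independent groups. These groups share the same libraries, so that rate cannot be used to judge the count. Both flagged groups concerned wildtype replicate 5. For *Gss*, its gap to the nearest wildtype library was 0.89 of the range of the 5 libraries, at 276 CPM against 508 to 549 CPM in the other 4. For *Gpx1*, the gap was 0.88 of the range, at 162 CPM against 265 to 284 CPM. The same library had the highest sums of skeletal muscle and mesenchyme genes and the lowest sum of lens fiber genes among the wildtype libraries, and the part of these transcripts in its values was not tested. Without it, the log2 fold change of *Gpx1* was -1.01 (adjusted p = 0.000475 by edgeR) and that of *Gss* -0.24 (adjusted p = 0.544).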

How the results depend on the processing

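*Ggct* passed in all 18 alternatives and *Gpx1* in 17, the exception being the fit without *Atf4* null replicate 3 (log2 fold change -0.88, adjusted p = 0.0518). No direction changed for these or for *Gsr*, *Gpx4*, *Gclc*, *Gclm* and *Gpx3*. *Gpx4* missed the threshold with exactTest (-0.51, adjusted p = 0.0511), with library size in place of TMM (-0.39, adjusted p = 0.088), with no filter (-0.52, adjusted p = 0.0578) and with the replicate block (-0.54, adjusted p = 0.0625). *Gsr* missed it with the replicate block (0.70, adjusted p = 0.0544). With 1 library left out, log2 fold changes ran from 0.61 to 0.85 for *Gsr* (4 of 9 passing), from -0.57 to -0.44 for *Gpx4*, from -1.04 to -0.75 for *Gpx1* and from -0.39 to 0.07 for *Gss*. With library size in place of TMM, *Gss* stood at 0.00 (adjusted p = 0.995 by edgeR), and the median of all genes rose too, as given below. Genes called among the 8 ranged from 2 to 4 over these fits, and were 2 under the replicate block. In all genes tested, 880 calls became 1397 with DESeq2 and 527 to 1207 with 1 library left out. Lower calls, 547, became 835 and 355 to 719, and higher calls, 333, became 562 and 172 to 488, or 800 with library size. That scaling moved the median log2 fold change of all genes from 0.001 to 0.126 and the share of higher calls from 37.8% to 64.6%. The permutation p of *Gpx1* was 0.057 without any 1 of wildtype replicates 1 to 4. The block used replicates 1 to 4 of both genotypes. Same-numbered libraries did not deviate together (correlations -0.13, -0.02, -0.02 and 0.01). Since the wildtype numbers are uncertain, this covers only the matching by title and cannot decide whether the samples were paired. The causes of these shifts were not tested. *Chac1*, with 0 to 14 counts in a library, did not pass the filter on low counts and was not tested with edgeR in the main fit.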

Other observations

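The 9 genes did not form one pattern across the libraries. Over the 9 libraries, log2 CPM of *Ggct* and *Gpx1* (Pearson r = 0.924), *Gpx1* and *Gpx4* (r = 0.859), *Ggct* and *Gpx4* (r = 0.851) and *Gclm* and *Gss* (r = 0.854) varied together. *Gsr* ran opposite to *Gpx1*, *Ggct* and *Gpx4* (r = -0.604, -0.596 and -0.587), and *Gclc* and its partner subunit *Gclm* had r = -0.408. All pairs share the same libraries, 2 genotypes and differences in fiber content, and no test was made.

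The nearest transcripts of genes that did not pass the threshold were looked up after their values were seen. *Gclc* was closest to *Dsel* (r = 0.943), *Tbc1d2b* (r = 0.925) and *Wdr44* (r = 0.913). *Gss* was closest to *Vit* (r = 0.987), *Cd24a* (r = 0.985) and *Maf*, a lens fiber transcription factor (r = 0.985). *Maf* stood at 1510 CPM in wildtype and 1520 CPM in *Atf4* null lenses (log2 fold change 0.01, adjusted p = 0.993 by edgeR). *Gclm* was closest to *St13* (r = 0.981), *Spg21* (r = 0.979) and *Dnajb1* (r = 0.974), the first and the last of which encode partners of Hsp70 chaperones. *Gpx3* was closest to *Clec14a* (r = 0.955), *Fech* (r = 0.924) and *Flt1* (r = 0.911), of which *Clec14a* and *Flt1* mark endothelium. The 6 vascular endothelium genes examined summed to 280 to 520 CPM in wildtype and 137 to 319 CPM in *Atf4* null libraries.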
